A study of Mus musculus with 4 samples.

Results

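The myelin and mature oligodendrocyte genes described here were 10 of the 21866 protein-coding genes of the mouse annotation: *Mbp*, *Mog*, *Mag*, *Mobp*, *Ermn*, *Opalin*, *Cnp*, *Myrf*, *Cldn11* and *Ugt8a*. They were selected on the peak calls of these same libraries, since their promoters had already been seen to be called more often in a single WT library, so the presence or absence of their peaks is given as a description with no test. Chromatin accessibility had been measured by ATAC-seq, in which a transposase cuts open chromatin, in tumors that mG7080 murine glioblastoma cells formed in the brains of Esm1 KO or WT mice, with 2 tumors per genotype and 1 peak list per tumor. Both groups were of strain C57BL/6 and carried the same tumor line, which came from spontaneous tumors of genetically altered mice. Esm1 is the gene of Endocan, which vessel-lining endothelial cells secrete, and it was absent from the host of the KO tumors and not from the injected cells. Only female mice were used, and the labels give no age. The labels call the material tumor tissue and the study's methods speak of freshly isolated tumor cells, so host brain cells could be present. In such bulk libraries fewer cells of a type and less open chromatin per cell cannot be told apart.

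Oligodendrocytes wrap axons of the central nervous system in myelin, a stack of membrane held together by basic proteins on its inner faces and by adhesion proteins and galactolipids on its outer faces. Oligodendrocyte precursors switch these genes on late, when SOX10, OLIG2 and MYRF act at promoters and at enhancers that can lie far from the start. A promoter peak and a distal peak therefore report different elements of a gene, and they were kept apart. A promoter peak overlapped the 1000 bp on either side of any annotated start of a protein-coding transcript. A distal region was a stretch where peaks of the 4 libraries merged, over the gene body or within 20 kb of it, that touched no promoter of a protein-coding gene.

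The 5 promoters that were called in WT replicate 1 alone are shown first, because the rest of the description turns on them. Each run is the 120 bases just before the outermost annotated start on GRCm38, 5′ to 3′ on the strand of the gene. Capitals mark letters of a SOX site (ACAAAG or ACAATG), of an E-box (CATCTG or CAGCTG) or of the MYRF site (CTGGCAC or CTGGTAC), on either strand.
Mog promoter, chr17:37023399-37023518, minus strand: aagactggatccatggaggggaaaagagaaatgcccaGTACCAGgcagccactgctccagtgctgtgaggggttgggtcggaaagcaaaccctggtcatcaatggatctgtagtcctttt
Mobp promoter, chr9:120149587-120149706, plus strand: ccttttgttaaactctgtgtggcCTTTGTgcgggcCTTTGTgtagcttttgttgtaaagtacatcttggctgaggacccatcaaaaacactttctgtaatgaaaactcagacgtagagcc
Ermn promoter, chr2:58052865-58052984, minus strand: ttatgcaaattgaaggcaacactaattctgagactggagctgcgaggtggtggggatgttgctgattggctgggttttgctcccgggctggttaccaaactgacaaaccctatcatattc
Mag promoter, chr7:30914874-30914993, minus strand: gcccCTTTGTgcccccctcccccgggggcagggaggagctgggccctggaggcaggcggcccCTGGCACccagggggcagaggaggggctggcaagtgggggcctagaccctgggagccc
Opalin promoter, chr19:41077114-41077233, minus strand: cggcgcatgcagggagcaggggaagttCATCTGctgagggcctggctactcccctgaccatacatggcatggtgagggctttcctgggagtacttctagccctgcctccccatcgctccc
SOX letters stood in 2 of the 10 promoters (*Mag* and *Mobp*) against 10.6% of 21853 promoters of the same length. E-box letters stood in 1 of 10 (*Opalin*) against 11.9%, and MYRF letters in 3 of 10 (*Mog*, *Mag* and *Cnp*) against 2.56%. The *Ermn* run held none of them. These matches are descriptions of letters, and binding was not measured.

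For comparison, 3 distal regions with a peak in all 4 libraries are shown, those outside *Mbp* whose lowest percentile of fold over the libraries was highest, each as 121 bases centred on the summit of its tallest peak relative to background, on the plus strand of GRCm38 with the same letters in capitals. None overlapped an annotated exon of the 10 genes or of the other gene lists used here. Exons of genes outside those lists were not checked, among them *Ttc25*, in which the *Cnp* region lies. *Mbp* lies on another chromosome whose sequence is not shown.
Mog distal region at -5.39 kb, chr17:37028819-37028939, plus strand: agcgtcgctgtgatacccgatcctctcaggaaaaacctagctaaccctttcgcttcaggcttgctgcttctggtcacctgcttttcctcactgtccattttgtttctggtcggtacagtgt
Cnp distal region at -10.51 kb, chr11:100564400-100564520, plus strand: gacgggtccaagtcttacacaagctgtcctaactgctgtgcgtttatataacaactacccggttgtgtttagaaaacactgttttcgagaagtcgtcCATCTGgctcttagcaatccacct
Mobp distal region at -8.80 kb, chr9:120140903-120141023, plus strand: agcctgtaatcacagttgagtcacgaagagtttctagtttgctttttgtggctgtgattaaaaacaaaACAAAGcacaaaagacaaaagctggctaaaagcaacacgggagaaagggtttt
Within 60 bases of the summit, SOX letters stood in 16 of the 78 distal regions of the 10 genes (20.5%, against 14.96% of 105571 distal regions), E-box letters in 18 (23.1%, against 25.1%) and MYRF letters in 5 (6.41%, against 4.35%). Letters of the NFI site (TTGGCA) stood in 13 (16.7%, against 10.9%), and those of the AP-1 site (TGACTCA or TGAGTCA) in 5 (6.41%, against 6.22%). Among the 37 regions with a peak in all 4 libraries the order turned for SOX, with 4 (10.8%, against 13.4% of all such regions), and for E-box, with 11 (29.7%, against 26.1%). MYRF letters stood in 3 of them (8.11%, against 4.68%), NFI letters in 7 (18.9%, against 10.7%) and AP-1 letters in 3 (8.11%, against 6.29%). No motif was tested.

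The lists held 82975 and 85418 peaks in KO replicates 1 and 2, against 63000 and 100088 in WT replicates 1 and 2. Summit heights in read ends were recovered from the fold and the p-value of each peak, and the lowest local background of a list was read as its genome background, which stands for depth. It was 6.03 and 6.71 read ends in the KO libraries, against 4.41 and 6.85 in the WT libraries, so WT replicate 1 was the shallowest. The share of all protein-coding genes with a promoter peak was 63.8% and 65.8% in KO, against 62.7% and 64.9% in WT. The share of all distal regions with a peak was 63.3% and 64.3% in KO, against 44.2% and 79.9% in WT. WT replicate 1 thus stood with the other libraries at promoters and below them at distal regions.

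All 10 myelin promoters had a peak in WT replicate 1, while 5 of 10 had one in each of KO replicate 1, KO replicate 2 and WT replicate 2. The same 5 genes were called in those 3 libraries, namely *Mbp*, *Cnp*, *Myrf*, *Cldn11* and *Ugt8a*. The other 5, *Mog*, *Mobp*, *Ermn*, *Mag* and *Opalin*, were called in WT replicate 1 alone, as were 41 of all 21866 genes (0.188%). That pattern chose the genes, so nothing is read from its excess over the background. No myelin promoter was called in both KO and neither WT library (0.288% of all genes) and none in both WT libraries without a KO library (0.128%). At such low shares 10 genes would seldom hold either pattern, and these calls chose the genes. The absence of both patterns is therefore not read as a result about the genotypes.

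**Figure D1:**
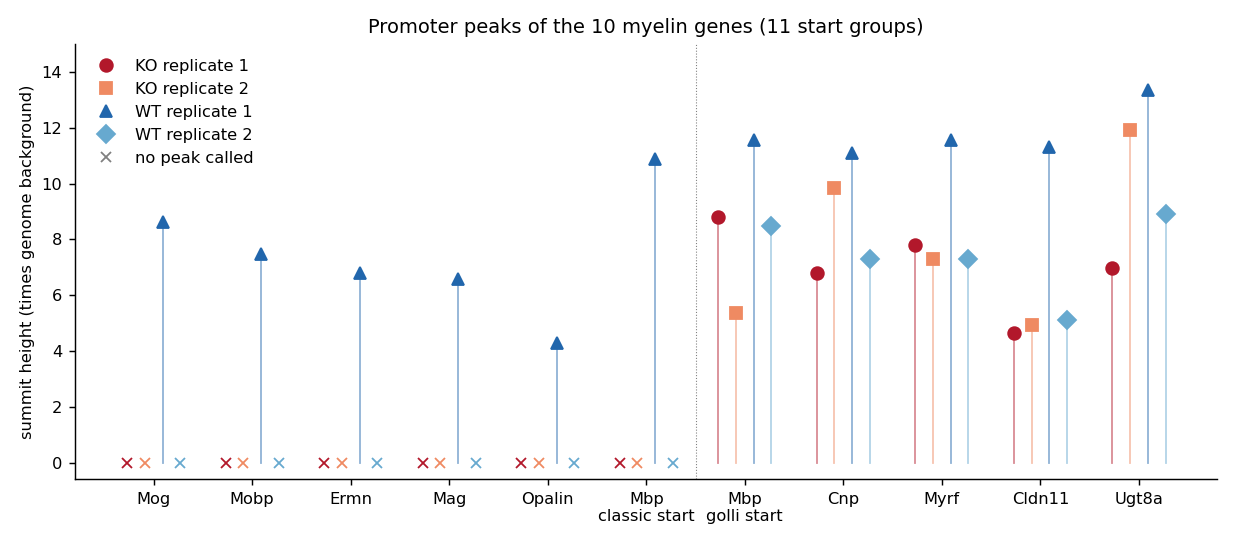
Summit height of the promoter peak as a multiple of the library's genome background (vertical axis) for each start group of the 10 genes with a peak in any library, in KO replicates 1 and 2 and WT replicates 1 and 2; a cross marks a library in which no peak was called. *Mog*, *Mobp*, *Ermn*, *Mag*, *Opalin* and the classic *Mbp* start have a point in WT replicate 1 alone, between 4.30 and 10.9 times background, while the 5 starts on the right have a point in all 4 libraries.

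*Mog* encodes a glycoprotein on the outermost surface of central myelin. Its promoter (chromosome 17, first start at 37023398, minus strand) had no peak in either KO library, and in WT it had 38 read ends in replicate 1 and no peak in replicate 2. The WT replicate 1 peak stood 8.61 times above the genome background and 4.73-fold above its local background with a −log10 q of 13.1, and its summit lay 1 bp from the first start. This was the tallest of the 41 promoter peaks found in that library alone. The height at this promoter in the other libraries is not known, since a height exists only where a peak was called.

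*Mobp*, a basic protein of compact myelin, was called at its first starts (chromosome 9, 120149707, plus strand) in neither KO library, with 33 read ends in WT replicate 1 and no peak in WT replicate 2. The peak reached 7.48 times the genome background, a local fold of 3.73 and a summit at −142 bp from the start. Its further start, at 120153045, had no peak in any library.

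*Ermn* encodes ermin, a cytoskeletal protein of mature oligodendrocytes. Its promoter (chromosome 2, 58052864, minus strand) had no peak in either KO library, against 30 read ends in WT replicate 1, or 6.80 times background, and no peak in WT replicate 2. The local fold was 4.43 and the summit lay at −5 bp from the start.

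*Mag* encodes the adhesion glycoprotein of the myelin membrane next to the axon. Its promoter (chromosome 7, 30914865, minus strand) was called in neither KO library, and in WT with 29 read ends in replicate 1 (6.57 times background, local fold 4.44) and no peak in replicate 2. *Opalin* encodes a membrane glycoprotein of oligodendrocytes and gave the weakest of the 5 peaks. It had no peak in the KO libraries (chromosome 19, 41077113, minus strand), 19 read ends in WT replicate 1 at 4.30 times background with a −log10 q of 3.22, and no peak in WT replicate 2. With peaks held to a −log10 q of at least 5, WT replicate 1 kept 9 of the 10 promoters and *Opalin* was the one lost.

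*Mbp* encodes the basic proteins that compact the inner faces of the myelin membrane, and it has far separated starts. The distal of these, known as the golli start, also serves cells outside the oligodendrocyte lineage, and the classic start within the gene gives the myelin proteins. The golli start (chromosome 18, 82475146, plus strand) had 53 and 36 read ends in the KO libraries, against 51 and 58 in the WT libraries. The classic start (82554470, shared by 7 annotated starts) had no peak in either KO library, against 48 read ends in WT replicate 1 (10.9 times background, local fold 3.09) and no peak in WT replicate 2. Counted by start, *Mbp* thus carried both patterns, and its promoter was called in all 4 libraries only through golli.

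The 4 remaining promoters were called in every library. *Cnp*, a cyclic nucleotide phosphodiesterase of non-compact myelin, had 41 and 66 read ends in KO, against 49 and 50 in WT. Its summits lay 299 and 166 bp past the start in KO, against 755 and 163 bp in WT. The *Cnp* height in WT replicate 1 was thus read at a different place in the promoter. *Myrf*, the membrane-bound transcription factor that switches on myelin genes, had 47 and 49 in KO, against 51 and 50 in WT. The genotypes overlapped at *Cnp* and lay within 4 read ends of each other at *Myrf*. *Cldn11*, the claudin of tight junctions between myelin layers, had 28 and 33 read ends in KO, against 50 and 35 in WT. *Ugt8a*, the transferase that makes galactocerebroside, had 42 and 80 in KO, against 59 and 61 in WT. KO was below WT in both tumors at *Cldn11* and on either side of it at *Ugt8a*. After each library was centred on its median, both KO libraries fell short of both WT libraries at 1 of the 5 shared promoters (*Cldn11*). That order held at 2163 of all 13372 promoters called in every library. The KO libraries both exceeded the WT libraries at 0 of the 5, against 2009 of all. Second start groups of *Myrf* and *Ugt8a* had no peak in any library.

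As multiples of background, WT replicate 1 was the highest of the 4 libraries at each of these 5 shared promoters. *Cldn11* stood at 4.65 and 4.92 times background in KO, against 11.3 and 5.11 in WT, and *Myrf* at 7.80 and 7.30 in KO, against 11.6 and 7.30 in WT. WT replicate 1 was also highest at 70.8% of all 13372 promoters called in every library, so this order was common to most promoters. With heights centred on each library's median over those promoters, WT replicate 1 was highest at 3 of the 5 (*Mbp*, *Myrf* and *Cldn11*) and at 30.02% of all. On that log2 scale *Cldn11* lay at −1.42 and −1.40 in KO, against −0.38 and −1.31 in WT, so that WT replicate 2 sat near the KO tumors.

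Promoters called in WT replicate 1 alone were poor in CpG. The ratio of observed to expected CpG over 1000 bp around the start was 0.147 for *Mog*, 0.160 for *Mag*, 0.250 for *Opalin*, 0.283 for *Ermn* and 0.320 for *Mobp*, and 0.457 for the classic *Mbp* start. It was higher at every start called in all 4 libraries, with 0.590 for *Cnp*, 0.592 for *Cldn11*, 0.60 for golli, 0.730 for *Myrf* and 0.921 for *Ugt8a*. The groups of starts did not overlap. The second starts of *Mobp*, *Ugt8a* and *Myrf*, which had no peak, lay at 0.127, 0.130 and 0.178. The median over all 41 promoters called in WT replicate 1 alone was 0.320, against 0.727 for the 13372 called in every library, 0.170 for genes called in no library and 0.561 for all genes. The called myelin starts thus followed the order seen across the annotation. The uncalled ones did not all lie below them, as the second *Myrf* start at 0.178 exceeded *Mog* and *Mag*.

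The 10 genes held 78 distal regions, of which 54 and 58 had a peak in KO replicates 1 and 2, against 55 and 58 in WT replicates 1 and 2. That is 69.2% and 74.4% in KO, against 70.5% and 74.4% in WT. Of all 105640 distal regions the libraries held 63.3% and 64.3% in KO, against 44.2% and 79.9% in WT. These counts depend on the length of the lists. With every list held to its best 63000 peaks they were 47 and 44 in KO, against 55 and 39 in WT. The share of all distal regions at that length was not computed, and the genes were chosen for calls in WT replicate 1. Nothing is therefore read from WT replicate 1 holding the most. *Mbp*, the longest of the genes at 110 kb, held 29 of the regions and had the fewest peaks in WT replicate 1 (22 and 21 in KO, against 17 and 23 in WT). Without it the counts were 32 and 37 of 49 in KO, against 38 and 35 of 49 in WT.

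**Figure D2:**
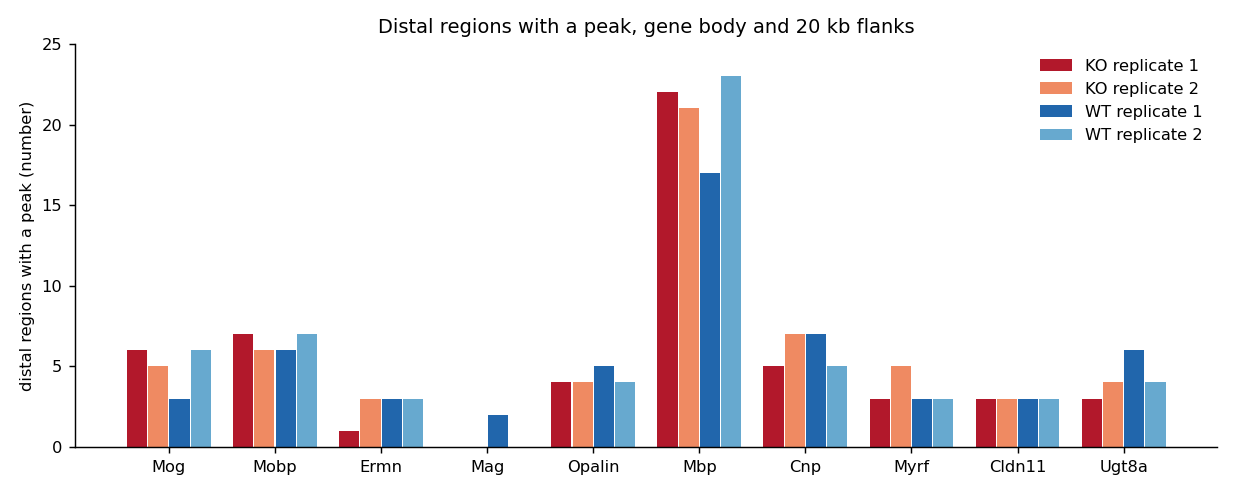
Number of distal regions with a peak (vertical axis) per gene in KO replicates 1 and 2 and WT replicates 1 and 2, over the gene body and 20 kb on either side. *Mbp* has 22 and 21 in KO, against 17 and 23 in WT; *Mag* has a bar in WT replicate 1 alone.

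Of the 78 regions, 37 (47.4%) had a peak in all 4 libraries, against 32.7% of all distal regions. They belonged to 9 of the 10 genes, *Mag* being the exception, and 14 lay upstream, 14 in the gene and 9 downstream. Of the 5 genes whose promoters were called in WT replicate 1 alone, 4 were among them, with 3 such regions at *Mog*, 5 at *Mobp*, 4 at *Opalin* and 1 at *Ermn*. Open chromatin outside protein-coding promoters was thus shared by all tumors at those 4 genes. The promoter peak was not, but that pattern is what set these genes apart. The share of all genes with such a shared region was not computed, so the contrast is a description only.

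The strongest by fold was a region 5.39 kb upstream of *Mog* (chr17:37028343-37029236), whose summit sequence is printed above. It had 70 and 98 read ends in KO, against 77 and 100 in WT, and its fold ranked at or above the 97.3rd percentile of its own list in every library. The region 8.80 kb upstream of *Mobp* (chr9:120140625-120141180) had 35 and 36 read ends in KO, against 37 and 35 in WT. The KO and WT values of both regions overlapped. The *Mobp* gene also had 3 shared regions between 35.00 and 43.17 kb from its start, past the end of the gene. At *Opalin* the shared regions at −12.92, −9.62, −4.73 and 5.39 kb surrounded the start. The one at −4.73 kb had 20 and 28 read ends in KO, against 31 and 21 in WT. At *Ermn* the only shared region lay 10.75 kb from the start inside the neighbouring gene *Galnt5*, with 25 and 31 read ends in KO, against 21 and 42 in WT.

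Genes with a promoter peak in every tumor also had shared distal regions. *Mbp* had 13, and the tallest of them lay in an intron 60.92 kb from the golli start, with 84 and 75 read ends in KO, against 49 and 98 in WT. *Cnp* had 4, of which the region at −10.51 kb, inside *Ttc25*, had 56 and 67 read ends in KO, against 36 and 65 in WT. All 3 distal regions of *Cldn11* were shared, and the one at 16.57 kb, past the end of the gene, had 32 and 46 read ends in KO, against 41 and 26 in WT. *Ugt8a* and *Myrf* had 2 each, and the *Ugt8a* region at −5.23 kb had 34 and 21 read ends in KO, against 22 and 32 in WT. WT replicate 1 was thus the lowest library at the *Mbp* and *Cnp* regions in raw height and in the middle at the others.

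**Figure D3:**
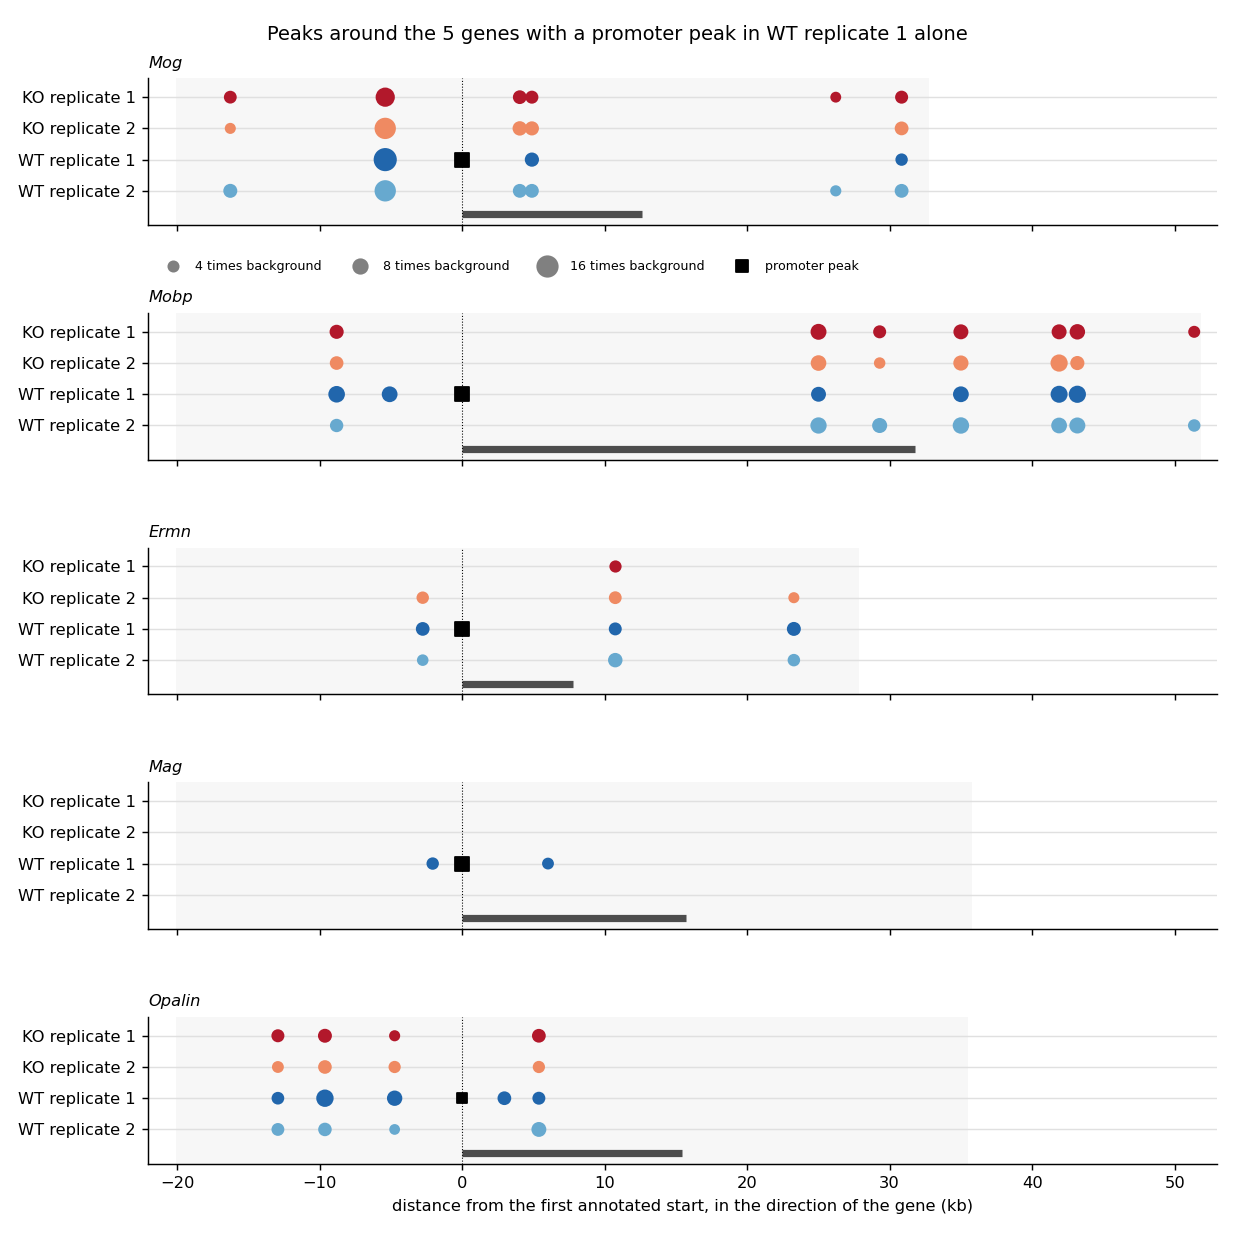
Distal regions (circles) and promoter peaks (black squares) of *Mog*, *Mobp*, *Ermn*, *Mag* and *Opalin* by distance from the first annotated start in kb (horizontal axis), with a row each for KO replicates 1 and 2 and WT replicates 1 and 2; symbol area is proportional to summit height over genome background, the dark bar is the gene and the pale band the 20 kb flanks. Squares appear in WT replicate 1 alone, circles at *Mog*, *Mobp*, *Ermn* and *Opalin* appear in all libraries, and the *Mag* rows are empty except in WT replicate 1.

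*Mag* differed from the rest. Within its body and 20 kb on either side, neither KO library and not WT replicate 2 had any distal peak, while WT replicate 1 had 2, at 6.03 kb (17 read ends) and −2.06 kb (19 read ends). Both were low in that library, at the 5.28th and 14.9th percentile of fold. The wider count of regions found in WT replicate 1 alone was 8 of 78 (10.3%), against 3.44% of all distal regions. The genes were chosen for promoter calls in that library, so nothing is read from this excess either. These 8 regions were 3 at *Ugt8a*, 2 at *Mag* and 1 each at *Mbp*, *Mobp* and *Opalin*. The *Mobp* one, 5.08 kb upstream of the start, had 33 read ends, as many as the promoter peak, and the *Opalin* one lay 2.97 kb inside the gene with 24. Regions in all libraries but WT replicate 1 numbered 7 (8.97%), against 13.6% of all. They were 3 at *Mbp*, 2 at *Mog* and 1 each at *Mobp* and *Myrf*. At *Mog* the KO libraries held 6 and 5 of 6 distal regions, against 3 and 6 in WT. WT replicate 1 held 44.2% of all distal regions, so 3 of 6 is near its share overall.

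By genotype, no distal region of the 10 genes had a peak in both KO libraries and in neither WT library, against 1.81% of all distal regions. The reverse, both WT libraries and no KO library, held for 1 of 78, against 1.61% of all. It lay 36.94 kb downstream of the *Cnp* start, inside *Dnajc7* and 1.5 kb from a *Dnajc7* start, with 15 and 19 read ends in the WT libraries. Both counts were at or below the background.

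Heights were then compared between KO and WT by limma, over every promoter or distal region called in all 4 libraries. Of 13372 promoters 2 passed at an adjusted p of 0.05 (0.015%), and of 34570 distal regions 13 did (0.0376%), all of them higher in KO. At an unadjusted p of 0.05 the counts were 522 and 1230. These counts moved with single libraries. Leaving out KO replicate 1 gave 216 promoters and 96 distal regions, and leaving out KO replicate 2 gave 10 and 7. Leaving out WT replicate 1 gave 1 promoter and 42 distal regions, and 40 distal regions passed when WT replicate 2 was left out. None of the 5 myelin promoters tested passed either threshold, and none of the 37 distal regions did. Among the promoters *Cldn11* was lower in KO by a log2 difference of −0.56 (SE 0.30, limma adjusted p = 0.9986). The golli start of *Mbp* was lower by −0.42 (SE 0.24, limma adjusted p = 0.9986). The KO and WT libraries did not overlap at *Cldn11* and overlapped at golli. Both differences rested on single libraries. The *Cldn11* difference was −0.10 without WT replicate 1 and −1.03 without WT replicate 2. The golli difference was −0.81 without KO replicate 1 (limma adjusted p = 0.057) and −0.033 without KO replicate 2. The other 3 lay between −0.18 and −0.03. The median of the 5 was −0.18, against −0.0049 over all promoters tested. This test sees only promoters with a peak in every library, so it covers none of the 5 called in WT replicate 1 alone.

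The 37 distal regions had a median log2 difference of −0.06, against −0.0076 over all, and 13 of them were above 0. They ranged from −0.48 (SE 0.27) at an intronic *Mbp* region 9.95 kb from the golli start to 0.43 (SE 0.26) at a region −19.13 kb from the *Cnp* start. The *Mbp* region had 26 and 24 read ends in KO, against 29 and 35 in WT, and the *Cnp* region 33 and 34 in KO, against 20 and 26 in WT. With a library left out, the *Mbp* value ran from −0.72 (without WT replicate 2) to −0.24 (without WT replicate 1), and the *Cnp* value from 0.24 (without WT replicate 2) to 0.62 (without WT replicate 1). KO and WT did not overlap at either region, yet the lowest limma adjusted p over the 37 was 0.9993. After centring, the KO libraries both exceeded the WT libraries at 4 of the 37 and both fell short of them at 4, against 4904 and 5507 of all 34570.

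**Figure D4:**
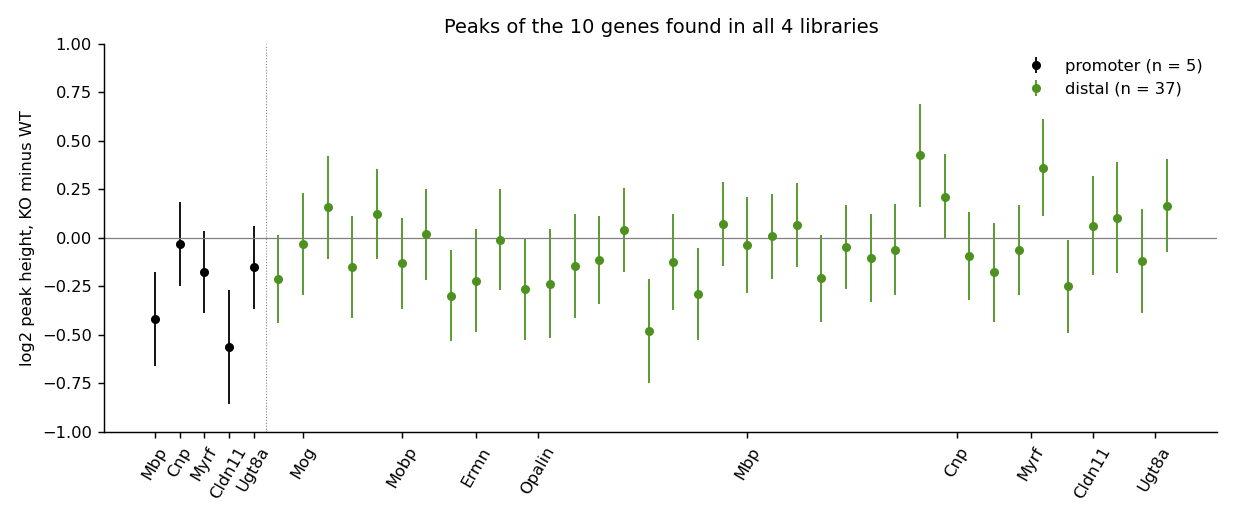
Log2 peak height, KO minus WT (vertical axis), with its standard error from limma (bars) for the 5 promoters (black) and 37 distal regions (green) of the 10 genes called in all 4 libraries (2 KO, 2 WT), grouped by gene along the horizontal axis and ordered by distance within a gene. Values lie between −0.56 and 0.43 and none passed the test.

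Other genes of the lineage were counted in the same way. Of 24 further myelin and mature oligodendrocyte genes, 16 and 20 had a promoter peak in KO, against 19 and 16 in WT, and only *Hapln2*, a link protein of the node of Ranvier, was called in WT replicate 1 alone (29 read ends). Of 12 lineage transcription factors, 7 and 9 were called in KO, against 11 and 7 in WT. *Nkx6-2* (35 read ends) and *Zfp488* (21), both factors of oligodendrocyte maturation, were found in WT replicate 1 alone. *Sox10*, a factor of the whole lineage that acts at many myelin genes, was called with 33 read ends in KO replicate 2 and 29 in WT replicate 1, and not in KO replicate 1 or WT replicate 2. *Olig2*, a factor of precursors and oligodendrocytes, had 26 and 71 read ends in KO, against 31 and 23 in WT. The 12 precursor genes were called in 10 and 11 cases in KO, against 10 and 9 in WT.

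**Figure D5:**
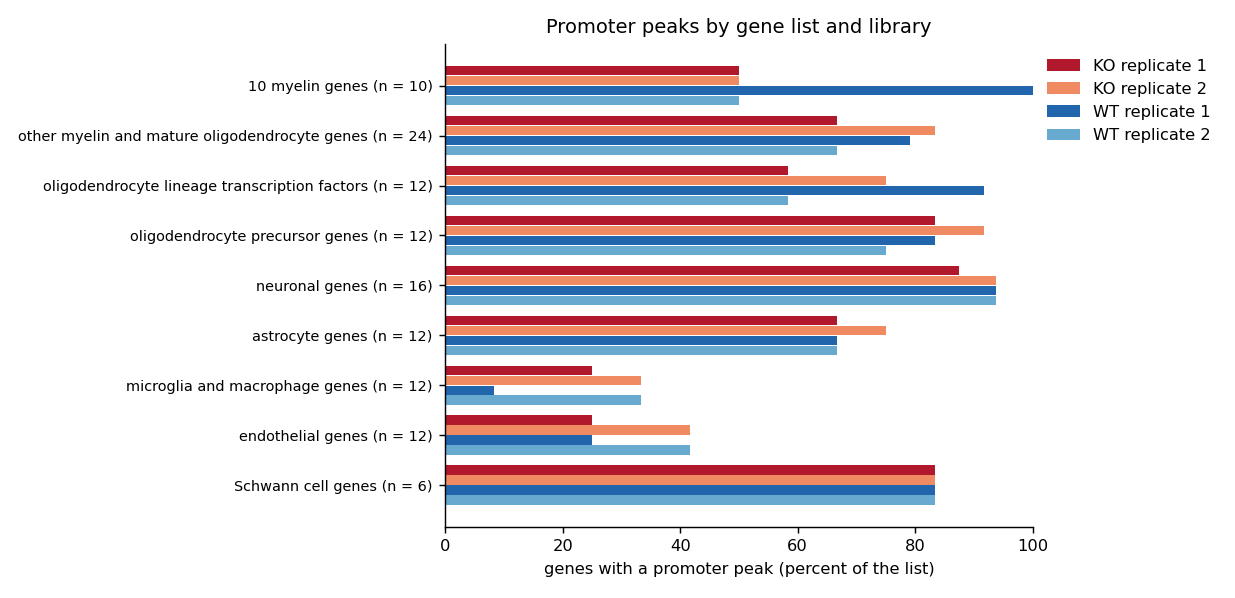
Share of each gene list with a promoter peak in percent (horizontal axis) in KO replicates 1 and 2 and WT replicates 1 and 2. The 10 myelin genes reach 100% in WT replicate 1 and 50% in the others, while the neuronal list holds between 14 and 15 of 16 genes in every library.

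Markers of other cell types were read beside these counts. Neuronal genes were called in 14 and 15 of 16 cases in KO, against 15 and 15 in WT, astrocyte genes in 8 and 9 of 12 in KO, against 8 and 8 in WT, and Schwann cell genes in 5 of 6 in every library. Endothelial genes were called in 3 and 5 of 12 cases in KO, against 3 and 5 in WT, and *Pecam1*, *Cdh5*, *Tek* and *Tie1* had no promoter peak anywhere. Microglia and macrophage genes were called in 3 and 4 of 12 cases in KO, against 1 and 4 in WT, and *Cx3cr1*, *P2ry12* and *Csf1r* had no promoter peak in any library. Promoter heights in multiples of background, summed over the microglia list, came to 22.9 and 24.4 in KO, against 11.1 and 27.5 in WT. The endothelial sums were 22.2 and 30.2 in KO, against 27.2 and 28.6 in WT, and the astrocyte sums 56.8 and 77.8 in KO, against 59.1 and 60.3 in WT. The neuronal sums were 171 and 148 in KO, against 199 and 178 in WT, and the Schwann cell sums 56.4 and 61.8 in KO, against 66.2 and 55.3 in WT. WT replicate 1 was thus lowest for microglia and highest for neurons and Schwann cells, and it was the highest library at most shared promoters of the genome as well. The part of host cells in the WT replicate 1 calls was not tested.

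Among the 41 genes with a promoter peak in WT replicate 1 alone, the 5 outside the 10 with the highest fold were *Ankub1* (fold 4.99), *S100a7a* (4.84), *Fga* (4.80), *F11r* (4.43) and *Trim15* (4.06). Their pattern over the 4 libraries is the same as that of *Mog*, whose fold of 4.73 ranked 4 of 41. By height the order changed, with *Mog* first at 38 read ends and these 5 between 21 and 29. *S1pr5*, a sphingosine phosphate receptor of mature oligodendrocytes that was picked out after its value was seen, had 34.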

How the data were processed

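ATAC-seq libraries of 2 KO and 2 WT tumors were analysed from 1 deposited peak list each. The notes of the submitters list MACS2, HOMER and mm10, all without versions. The study's methods describe Bowtie2 alignment to GRCm38, removal of duplicates and Genrich, but the deposited columns follow MACS2 arithmetic and were read so. A shift of reads for transposase binding is a step not given in the sources used here. The authors' lists hold for each deposited peak a fold (a ratio over local background) and a −log10 p and −log10 q from the authors' caller. Read counts and depth per library are not given. As MACS2 computes the fold as (height + 1)/(background + 1) and its p-value as a Poisson tail, whole summit heights were recovered. They matched the deposited −log10 p within 0.001 for all 331481 peaks.

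Genes and starts were those of GENCODE M21 (54374 starts of protein-coding transcripts) and sequence that of GRCm38 from RefSeq. Heights were log2-transformed, centred on each library's median and compared by limma 3.58.1 (R 4.3.3) with a mean-variance trend and Benjamini-Hochberg adjustment over all features called in every library. Other steps used Python 3.11.15 with pandas 2.3.3. Functions were tested on simulated data. The genes, lists and tests were chosen with earlier results of these data known. By rule, the genes named were the 10, *Sox10*, *Olig2*, list genes called in WT replicate 1 alone (up to 4 per list), and the 5 others of that pattern with the highest fold percentile. *S1pr5* and some endothelial and microglia genes without a peak in any library were named outside this rule. Single results that this rule or the lists would name are not reported here. Starts more than 2000 bp apart were kept as separate start groups. The labels describe separate tumors. Same-numbered tumors are not stated to be paired. Alternatives varied the promoter width, flanks, thresholds, scaling and replicates.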

Additional observations from a re-analysis of the deposited data

How the results depend on the processing

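Of 165 recomputed values, 127 stayed within 1.5 times the count reported, for counts, or kept their sign and side of the threshold, for log2 differences. With a −log10 q of at least 5, or with every list cut to its best 63000 peaks, KO replicate 2 kept 3 promoters, losing *Cldn11* and *Mbp*. The lists of equal length gave 47 and 44 distal regions in KO, against 55 and 39 in WT, so the order of the libraries changed. On the full lists, leaving out regions at promoters of all annotated genes, noncoding ones included, gave 49 and 53 in KO, against 51 and 53 in WT. The distal counts scaled with the window: over the gene body alone they were 24 and 26 in KO, against 22 and 25 in WT, flanks of 50 kb gave 90 in WT replicate 2, and leaving out *Mbp* (chosen after seeing the data) gave 32 and 37 in KO and 35 in WT replicate 2. Distal regions in both KO and neither WT library numbered 1 under either stricter list and 0 to 7 with a library left out, and those in both WT and neither KO library 3 with the stricter q and 3 to 9 with a library left out, since a single library then stands for its genotype.

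The count of promoters called between KO and WT was 11 with scaling by genome background, 0 without the trend, 4 at a mean height of at least 30 read ends and 1 to 216 with a library left out. It was 216 without KO replicate 1. The distal count was 7 to 96 with a library left out, the most again without KO replicate 1. The replicate block gave 12 promoters. Same-numbered tumors deviated in opposite directions (r = −0.29 over 34570 distal regions), and crossed pairs, added after seeing the data, gave 32 promoters and 77 distal regions. Whether the replicate numbers pair the tumors is not stated, and this correlation cannot settle it. No myelin promoter or distal region was called under any of these settings. With a library left out, the log2 difference of the *Cnp* promoter ran from −0.27 to 0.20, of *Ugt8a* from −0.51 to 0.21 and of *Myrf* from −0.40 to 0.048. *Cnp* and *Ugt8a* turned positive without KO replicate 1 or WT replicate 1, and *Myrf* without WT replicate 1. The causes were not tested.

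With 2 tumors per genotype and no read counts, a region without a peak has no height, and a missing peak is not closed chromatin. WT replicate 1, on which the promoter pattern rests, was the shallowest library, and without it the 5 promoters would have had no peak in any tumor.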
